A study of Sus scrofa with 15 samples.

Results

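MX1, MX2, ISG15, RSAD2 and IFI44L, effectors of the interferon response against viruses, were followed in backfat of 15 castrated male Iberian pigs. All probe sets annotated with exactly 1 of these symbols were taken, which gave 9 probe sets for 5 genes, out of 3272 probe sets and 1260 named genes in all. MX1, MX2 and ISG15 had 1 probe set each and IFI44L had 3. RSAD2 had 1 ordinary probe set and 2 of the array manufacturer's control probe sets, which by their identifiers lie at the 3′ end and in the middle of the transcript.

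The high-oleic group held 8 animals on a feed enriched in oleic acid with 3360 kcal per kg, and the control group 7 animals on a standard feed with 3130 kcal per kg. Control animals were given 10% more feed, which was meant to make energy and protein equal. Treatment began at 28 kg, lasted 24 weeks and ended at slaughter at a planned 110 kg. One array was hybridised per animal from the inner layer of the backfat, and the animal was the replicate. Values are the authors' log2 signals, so a difference of 1 is a doubling, and health records were not used here. LEP, which encodes the fat cell hormone leptin, lay between 11.04 and 12.52 in high-oleic animals and between 10.29 and 12.29 in control animals. The lowest of all 15 was control animal 1. The other 11 adipocyte markers listed were not analysed here.

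Interferons are secreted proteins that bind receptors on neighbouring cells and, through JAK kinases, STAT proteins and IRF9, switch on a large set of antiviral genes. MX1 and MX2 are dynamin-like GTPases that block viral particles inside the cell, and their genes are direct neighbours in the pig RefSeq annotation (assembly Sscrofa11.1). ISG15 is a ubiquitin-like protein that is attached to other proteins, and USP18 removes it and restrains signalling from the interferon receptor. RSAD2, also called viperin, is a radical SAM enzyme that makes a chain-terminating nucleotide, and IFI44L is an interferon-induced protein whose gene lies beside the related IFI44. In healthy tissue such genes are usually low and rise together when interferon is present.

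All 9 probe sets had the same 2 animals on top, high-oleic animal 2 and control animal 1, 1 from each diet. Among the 3255 tested probe sets these 2 animals were the top 2 in 236, or 7.25%. The gap of the lower of them to the next animal was between 0.68 for MX2 and 4.45 for the middle RSAD2 probe set on the log2 scale. Their live weights, 107 kg in high-oleic animal 2 and 112.5 kg in control animal 1, were inside the range of the others.

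MX1 had a log2 signal of 12.69 in high-oleic animal 2 and 12.71 in control animal 1. Its lowest, median and highest values were 8.34, 8.91 and 12.69 on the high-oleic diet, against 7.88, 8.17 and 12.71 on the control diet. These 2 animals stood 18.3-fold and 18.6-fold above the median of the remaining 13, which spanned only 3.04-fold. Both animals thus reached nearly the same MX1 level, and the 13 others formed a narrow band far below it.

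MX2, the neighbouring gene, was raised much less on its 1 probe set. It was 9.15 in high-oleic animal 2 and 10.10 in control animal 1, or 2.71-fold and 5.23-fold above the median of the other 13 animals. High-oleic animals had a lowest, median and highest value of 7.07, 7.76 and 9.15, and control animals 6.11, 7.80 and 10.10. Among the 13 other animals MX2 varied 5.15-fold, so high-oleic animal 2 stood little above the next animal, high-oleic animal 6 at 8.47.

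ISG15 reached 12.93 in high-oleic animal 2 and 13.26 in control animal 1, which were 22.4-fold and 28.2-fold above the median of the other 13. Its lowest, median and highest signals were 7.92, 8.84 and 12.93 on the high-oleic diet, against 7.38, 8.22 and 13.26 on the control diet. Control animal 3, at 9.92, was the next highest, and the 13 other animals spanned 5.83-fold.

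RSAD2 had the widest range of the 5 genes on the probe sets at hand. Its ordinary probe set read 12.72 in high-oleic animal 2 and 12.88 in control animal 1, and the animals' full range was 95.4-fold. The lowest, median and highest values were 7.32, 8.51 and 12.72 in high-oleic animals, against 6.30, 7.06 and 12.88 in control animals. Both array control probe sets, which are separate spots on the array, showed the same 2 animals on top. The 3′ control probe set was 11.86 in high-oleic animal 2 and 11.82 in control animal 1, with a full range of 138-fold, and the middle one 10.07 and 9.97, with a full range of 91.0-fold. The 3′ and the ordinary probe set agreed closely across the other 13 animals (r = 0.995, a description, since both read the same transcript). The middle probe set was low in those 13, between 3.56 and 5.52, where it is not known to be above background, so its folds and gap are not exact. It followed the ordinary one less closely (r = 0.792).

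IFI44L was raised in the same animals, but less than MX1, ISG15 and RSAD2, and more in control animal 1 than in high-oleic animal 2. Its brightest probe set was 11.64 in high-oleic animal 2 and 12.33 in control animal 1, or 4.81-fold and 7.74-fold above the median of the other 13. The lowest, median and highest values were 8.91, 9.46 and 11.64 on the high-oleic diet, against 8.61, 9.37 and 12.33 on the control diet. The intermediate probe set stood 6.26-fold and 11.2-fold above that median in the same 2 animals, and the dimmest 6.49-fold and 12.02-fold. The fold thus depended on the probe set. This limits any order of rise or range between genes, since MX1, MX2 and ISG15 had 1 probe set each. Control animal 1 exceeded high-oleic animal 2 by 0.69 to 0.89 on the 3 probe sets of IFI44L and by 0.95 for MX2, against 0.02 for MX1. Each of these gaps rests on 1 array per animal and has no replicate.

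**Figure D1:**
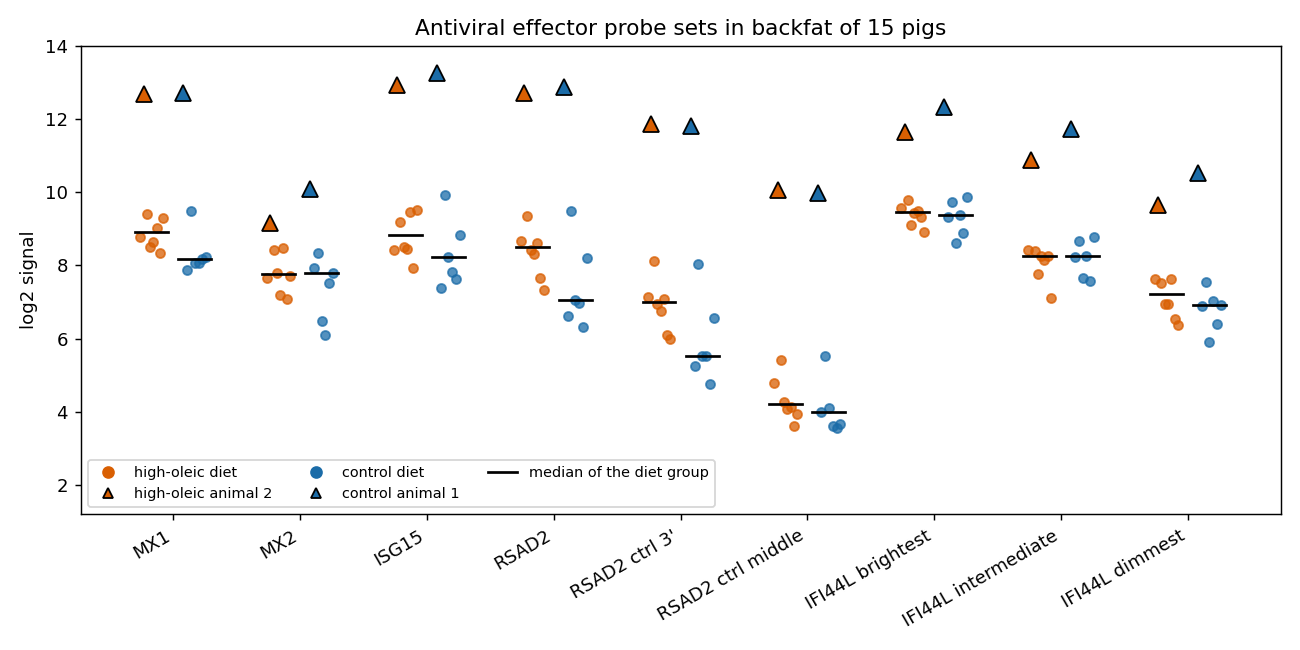
Log2 signal (y axis) of the 9 probe sets (x axis) in each animal, high-oleic in orange left of control in blue. Triangles are high-oleic animal 2 and control animal 1, circles are the other animals and bars are group medians. The triangles lie above every circle in all 9 probe sets, by 0.68 for MX2 and by 4.45 for the middle RSAD2 probe set.

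The dynamic range of the genes therefore rested largely on 2 animals. Over all 15 animals the range was 4.83 log2 units for MX1, 3.99 for MX2, 5.88 for ISG15, 6.58 for RSAD2 and 3.72 for the brightest IFI44L probe set, where the median of all tested probe sets was 2.01. Without the 2 animals it was 1.60, 2.36, 2.54, 3.17 and 1.25 in the same order, where the median of all tested probe sets was 1.83. These 2 animals accounted for 89.0% of the sum of squares of MX1, 83.0% of ISG15, 77.0% of RSAD2, 88.1% of IFI44L and 55.8% of MX2, against a median of 15.4% over all tested probe sets. By SD over 15 animals, RSAD2 ranked 18th and ISG15 30th of 3255. Over the other 13 animals RSAD2 ranked 181st, ISG15 444th, MX2 587th, MX1 1430th and IFI44L 2970th. RSAD2 and ISG15 thus kept a wide spread among the 13 other animals, whereas the brightest IFI44L probe set did not. The intermediate and dimmest IFI44L probe sets ranked 2143rd and 1508th over these animals. The 2 animals left out were the top 2 in all 9 probe sets, but in only 7.25% of all tested ones. Part of the contrast in range, share of squares and rank over 13 animals is therefore built in. The low ranks of MX1 and IFI44L are not a like-for-like comparison.

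**Figure D2:**
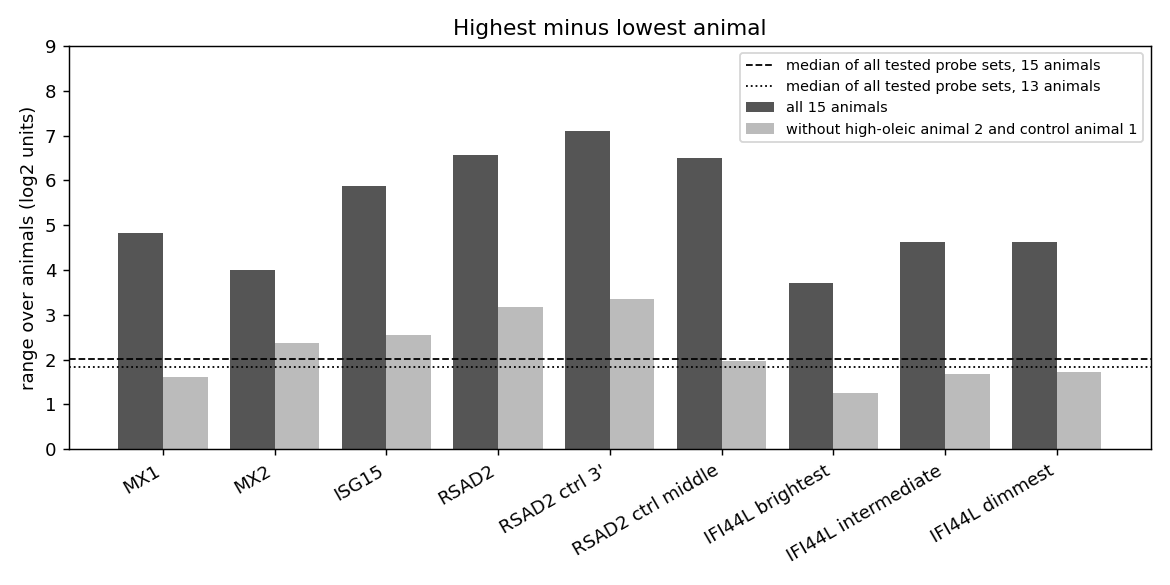
Range over animals in log2 units (y axis) for each probe set (x axis), over all 15 animals in dark grey and over 13 animals in light grey. The lines are the median range of all tested probe sets, 2.01 over 15 animals (dashed) and 1.83 over 13 (dotted). Over 13 animals, MX1 and all 3 IFI44L probe sets lie below the dotted line, and MX2, ISG15 and the 3 RSAD2 probe sets above it. The animals left out are the highest in every probe set shown, but in only 7.25% of all tested ones, so the dotted line is not a like-for-like reference.

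Among the other 13 animals an order could still be seen. Control animal 3 was in the top 3 of the 13 for all 9 probe sets and high-oleic animal 3 for 6, with mean ranks of 1.89 and 2.56. RSAD2 was 9.36 in high-oleic animal 3 and 9.47 in control animal 3, and control animal 3 was 3.25 log2 units below the lower of the 2 top animals. At the low end, control animal 6 had a mean rank of 11.67 and the lowest RSAD2 of all, 6.30, and control animal 4 a mean rank of 10.67.

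Co-variation of the 5 genes was high with all 15 animals and differed between pairs without the 2 top animals. With 1 probe set per gene, r over 15 animals lay between 0.809 and 0.981 for the 10 pairs, with a median of 0.913. These values are set by 2 animals far from the rest and are given without a test. Over the other 13 animals r lay between 0.378 and 0.895, with a median of 0.618 (rho 0.467 to 0.874).

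MX1 and ISG15 stayed closest, with r = 0.895 over 13 animals (permutation p = 3e-05, adjusted over 10 pairs 0.0003) and rho = 0.874 (permutation p = 0.00012, adjusted 0.0012). Of the 3248 probe sets outside the 9, 0.0% were as close to MX1 and 0.0616% as close to ISG15. MX1 and RSAD2 gave r = 0.761 (permutation p = 0.0037, adjusted 0.0142) and rho = 0.835 (permutation p = 0.00084, adjusted 0.0042). ISG15 and RSAD2 gave r = 0.748 (permutation p = 0.00425, adjusted 0.0142) and rho = 0.747 (permutation p = 0.00522, adjusted 0.0174). RSAD2 and IFI44L gave r = 0.7002 (permutation p = 0.00778, adjusted 0.0195) and rho = 0.709 (permutation p = 0.00852, adjusted 0.0213).

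The neighbouring genes MX1 and MX2 gave r = 0.643 (permutation p = 0.0175, adjusted 0.0349), but rho = 0.556 did not pass (permutation p = 0.0518, adjusted 0.0741). MX2 with ISG15 and with RSAD2 gave r = 0.594 and 0.587, each with an adjusted permutation p of 0.0505. IFI44L did not pass with MX1 or ISG15, with r = 0.384 and 0.378 and an adjusted permutation p of 0.202 for both, and with MX2 it gave r = 0.489 (adjusted permutation p = 0.111). As a background, r was 0.5 or more with 3.82% of the 3248 other probe sets for MX1, 1.66% for MX2, 3.60% for ISG15, 3.45% for RSAD2 and 7.02% for IFI44L.

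Some calls changed when control animal 3, the next highest, was left out. Without it, MX1 with ISG15 was the only pair past the threshold (r = 0.860, adjusted permutation p = 0.0041), and RSAD2 gave r = 0.692 with MX1, 0.670 with ISG15 and 0.658 with IFI44L, each at an adjusted permutation p of 0.0505. Without high-oleic animal 3, 3 pairs passed. Leaving out the 2 animals farthest from the median of the first gene gave r = 0.858 for MX1 with ISG15 and 0.570 for MX1 with RSAD2. The same step gave 0.598 for ISG15 with RSAD2, 0.710 for RSAD2 with IFI44L and 0.481 for MX1 with MX2.

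**Figure D3:**
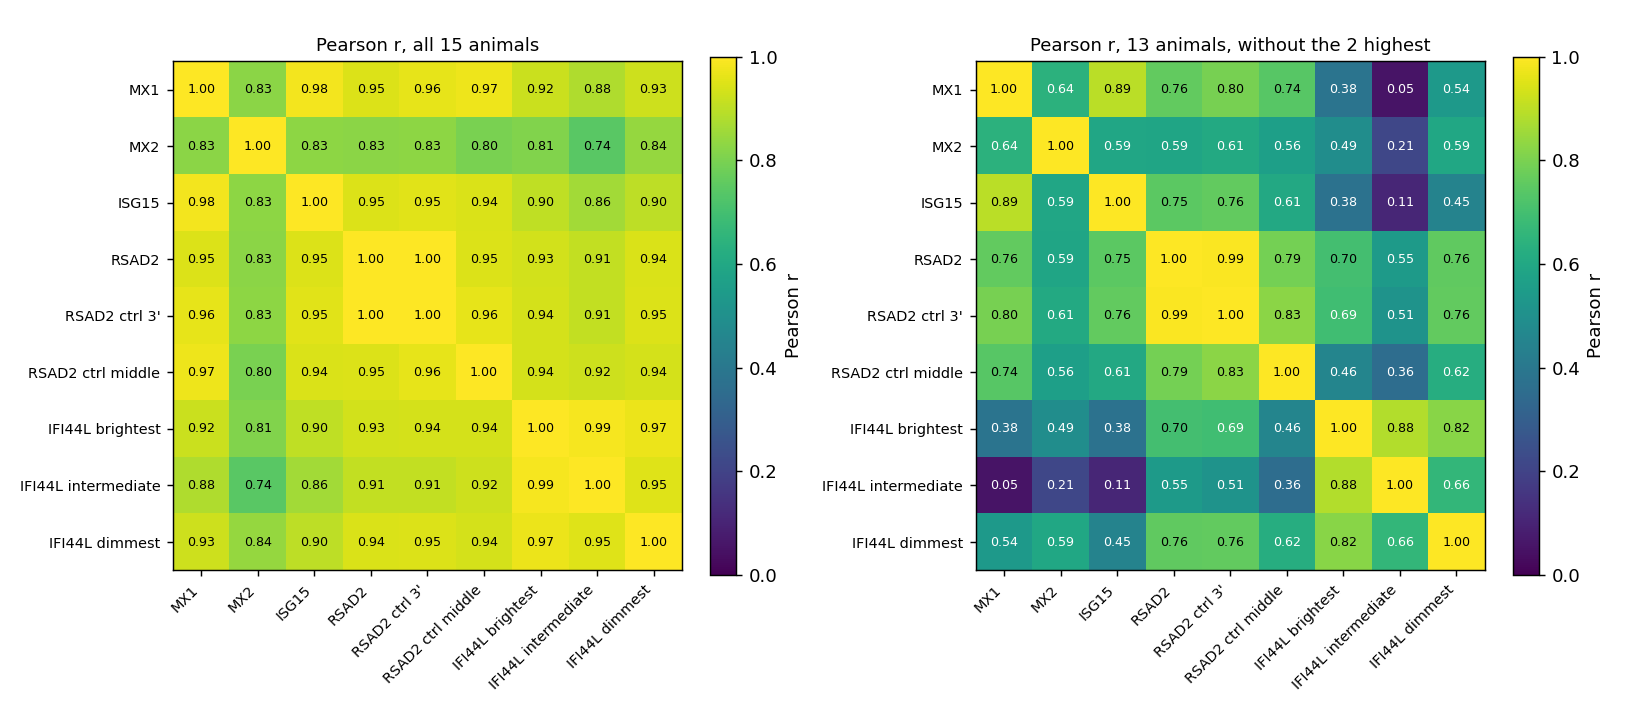
Pearson r between the 9 probe sets over all 15 animals (left) and over 13 animals (right), with colour and number giving r. On the left all 36 values lie between 0.745 and 0.998, and on the right between 0.054 and 0.995, the lowest being MX1 with the intermediate IFI44L probe set.

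The probe set mattered for IFI44L. Its brightest probe set correlated with the intermediate one at r = 0.883 and with the dimmest at 0.820 over 13 animals, and those 2 with each other at 0.663. Against MX1 the dimmest gave r = 0.540 and the intermediate 0.054. With the dimmest IFI44L and the 3′ RSAD2 probe set in place of the ones above, 8 of the 10 pairs passed, and with the intermediate IFI44L and the middle RSAD2 probe set 2 passed.

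Within diets, ISG15 and RSAD2 gave r = 0.120 in 7 high-oleic animals (exact permutation p = 0.787), against r = 0.978 in 6 control animals (exact permutation p = 0.00556). Neither passed after adjustment over the 10 pairs (adjusted exact p = 0.875 and 0.0556), and the difference between diets was not tested. High-oleic animal 8 stood apart in this relation. It had the second highest ISG15 of the 13 animals, 9.50, and the third highest MX1, 9.28, but RSAD2 of 7.32 ranked ninth and the brightest IFI44L probe set, 8.91, ranked eleventh. Without this animal, a choice made after seeing the data, the 6 remaining high-oleic animals gave r = 0.750 for ISG15 with RSAD2 and 0.921 for MX1 with RSAD2, and 12 animals of both diets gave 0.888 and 0.906. Its array had the highest mean signal of the 7 probe sets for spiked bacterial transcripts, 7.29, and the part of this in the result was not tested. MX1 with ISG15 gave r = 0.890 in 7 high-oleic animals, 0.855 in 6 without animal 8, and 0.905 in 6 control animals. IFI44L gave r = 0.204 with MX1 and -0.061 with ISG15 in 7 high-oleic animals, and 0.841 and 0.504 in 6 without animal 8. Over 12 animals of both diets without animal 8 these were 0.585 and 0.573. RSAD2 with IFI44L went the other way, from 0.837 in 7 high-oleic animals to 0.70 in 6.

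**Figure D4:**
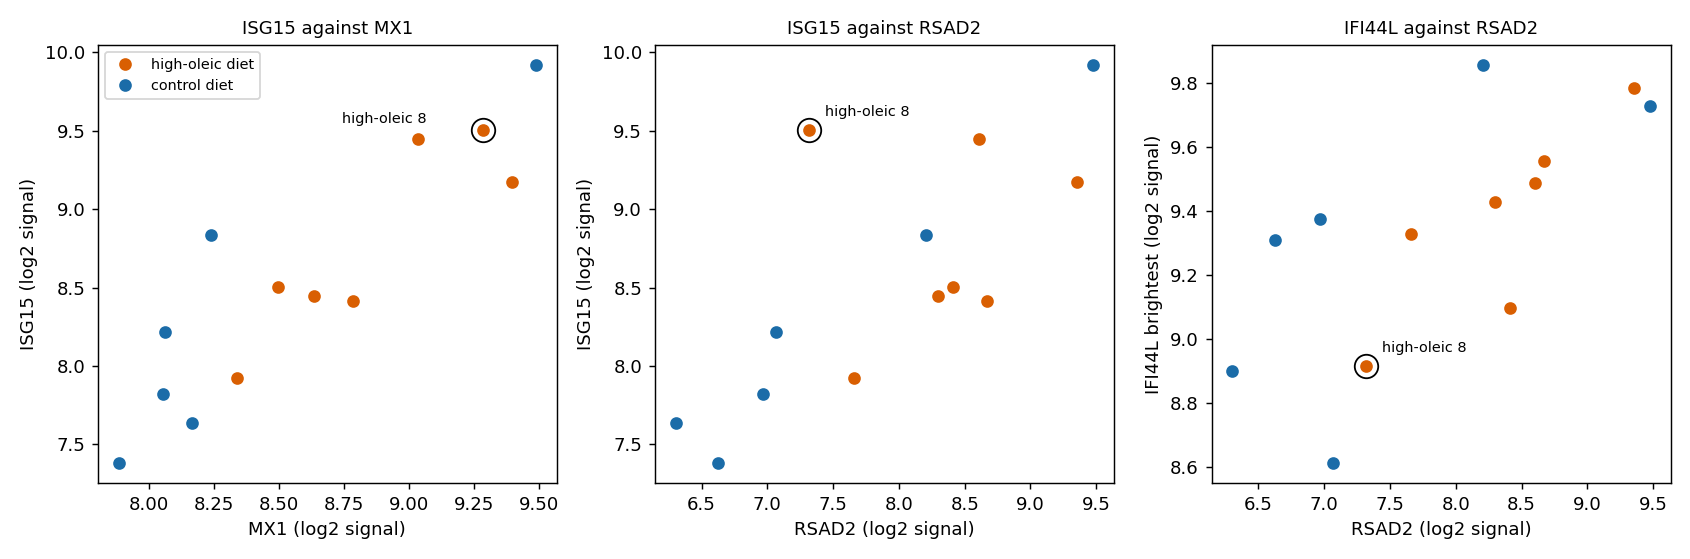
Log2 signals of ISG15 against MX1, ISG15 against RSAD2 and IFI44L (brightest probe set) against RSAD2, 1 point per animal, in the 13 animals other than high-oleic animal 2 and control animal 1. Orange is the high-oleic and blue the control diet. High-oleic animal 8, ringed, lies with the others for ISG15 against MX1 and apart from them for ISG15 against RSAD2.

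No difference between the diets passed the test for any of the 5 genes. MX1 averaged 9.33 ± 1.41 (SD, n = 8) in high-oleic animals and 8.94 ± 1.75 (SD, n = 7) in control animals, and MX2 7.93 ± 0.70 and 7.75 ± 1.31. ISG15 averaged 9.29 ± 1.57 in high-oleic animals and 9.01 ± 2.06 in control animals, RSAD2 8.88 ± 1.67 and 8.22 ± 2.32, and IFI44L 9.65 ± 0.85 and 9.73 ± 1.22. The groups overlapped for every probe set. The difference, high-oleic minus control, was 0.39 for MX1 (95% interval -1.01 to 1.79), 0.18 for MX2 (-0.77 to 1.14), 0.28 for ISG15 (-1.32 to 1.88), 0.66 for RSAD2 (-1.09 to 2.41) and -0.08 for IFI44L (-1.04 to 0.89). In limma with Benjamini-Hochberg adjustment over all 3255 probe sets, 0 of the 9 passed at an adjusted p under 0.05, each at 0.999, where 0 of 3255 (0.0%) passed and 128 (3.93%) had an unadjusted p under 0.05. The exact permutation test over 6435 splits gave unadjusted p-values of 0.518 to 0.880, where 4.18% of all tested probe sets had one under 0.05.

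Without high-oleic animal 2 and control animal 1 the intervals narrowed and 8 of 9 differences were positive, as were 1597 of the 3255 over all tested probe sets. The 9 are correlated readings of 5 genes. RSAD2 was then 8.33 ± 0.67 (SD, n = 7) in high-oleic animals and 7.44 ± 1.19 (SD, n = 6) in control animals, a difference of 0.89 (95% interval -0.05 to 1.83, limma adjusted p = 0.999). Its 3′ control probe set differed by 0.93 (-0.02 to 1.88) and the middle one by 0.24 (-0.48 to 0.96). MX1 differed by 0.54 (-0.06 to 1.14), ISG15 by 0.47 (-0.33 to 1.28), MX2 by 0.40 (-0.36 to 1.16) and the brightest IFI44L probe set by 0.07 (-0.46 to 0.60). None of the 9 passed, where 0.0% of all tested probe sets passed and 3.2% had an unadjusted p under 0.05. Control animal 3 was among the highest of these 13 for every gene. With live weight as a covariate the sign turned for MX1, MX2, ISG15, RSAD2 and the dimmest IFI44L probe set when all 15 animals were used, for example -0.33 for RSAD2. Without the 2 top animals and with live weight it was negative for MX2 (-0.30) and the middle RSAD2 probe set (-0.12).

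**Figure D5:**
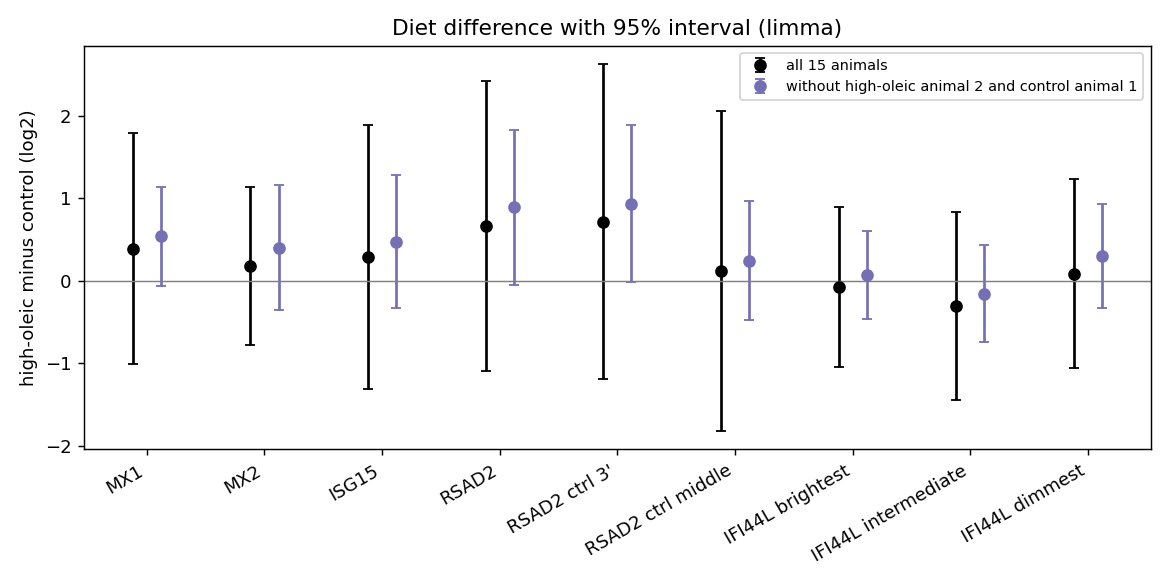
High-oleic minus control difference in log2 units with its 95% interval from limma (y axis) for each probe set (x axis), for all 15 animals in black and for 13 animals in violet. Every interval includes 0 in both fits, and the intervals are narrower without the 2 animals.

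Live weight was 104.5 to 116 kg in high-oleic animals and 112 to 133 kg in control animals, so its slope was taken at fixed diet. All 9 slopes were negative, as were 1484 of the 3255 over all tested probe sets, with MX2 at -1.15 per 10 kg (95% interval -1.91 to -0.38), RSAD2 at -1.24, ISG15 at -1.22, MX1 at -0.96 and the brightest IFI44L probe set at -0.50. None passed in limma (adjusted p 0.916 to 0.919), where 0 of 3255 (0.0%) passed and 3.81% had an unadjusted p under 0.05. Without the 2 top animals the slope of MX2 was -0.82 (limma unadjusted p = 0.0100, adjusted 0.996, where 0 of 3255 (0.0%) passed and 2.67% had an unadjusted p under 0.05), that of RSAD2 -0.41, ISG15 -0.46, MX1 -0.27 and IFI44L -0.03. Control animal 5, the heaviest at 133 kg, had the lowest MX2, 6.11, and without it the slope over 14 animals was -1.40 for MX2 (95% interval -2.86 to 0.05) and -1.94 for MX1. Without it and the 2 top animals, an alternative added after seeing the data, MX2 was -0.78 (limma unadjusted p = 0.175). Without control animal 1 alone the slopes were -0.48 for MX1, -0.89 for MX2, -0.69 for ISG15, -0.66 for RSAD2 and -0.16 for the brightest IFI44L probe set.

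Of the 6 named genes most like the 5, 5 were on the list of interferon pathway genes and LOC733579 was not. Probe sets without a symbol could not be named. Likeness was r with the mean of the 5 genes, each centred on its own mean, and is a description. The same 6 genes led over 15 and over 13 animals. They were PARP12, a zinc-finger ADP-ribosyltransferase (r = 0.985 over 15 and 0.902 over 13 animals), IFIT3, which binds viral RNA in a complex with its relatives (0.980 and 0.861), and ZBP1, a sensor of left-handed nucleic acid (0.979 and 0.855). The others were USP18 (0.977 and 0.854), LOC733579 (0.975 and 0.829) and XAF1, a promoter of apoptosis (0.973 and 0.881). XAF1 was 10.47 in high-oleic animal 2 and 9.65 in control animal 1, against 3.39 to 6.30 in the others. Over 15 animals 80 probe sets outside the 9 had r of 0.8 or more, and over 13 animals 12 had.

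Of a list of 107 interferon pathway genes 31 were measured, and of the 13 ligands and receptors none was analysed here. Measured means, here and below, named by a probe set among the 3272. Whether the other genes were absent from the array, left out as less variable or left without a symbol is not known here. In signalling, IRF9, the DNA-binding part of the interferon-activated complex, was 9.16 in high-oleic animal 2 and 9.27 in control animal 1, against 6.29 to 7.75 in the others. IRF7, which amplifies interferon production, was 6.80 and 6.08 in the same 2 animals. It was 1.68 to 3.73 in the others, where it is not known to be above background. USP18 was 11.14 and 11.25, against 5.78 to 7.89. IRF3, which is activated by phosphorylation and not chiefly by its amount, was 8.18 and 7.86, within the 6.89 to 8.58 of the others, and JAK2 was 6.53 and 7.35, against 5.70 to 7.24. Among sensors of viral nucleic acid, DDX58 (RIG-I) was 9.79 and 10.29, against 4.49 to 6.14, and ZBP1 10.41 and 11.32, against 4.80 to 7.19. OAS1 and EIF2AK2, activated by double-stranded RNA, were 12.68 and 11.73 in high-oleic animal 2 and 12.18 and 12.51 in control animal 1, above all other animals. The 2 animals were the top 2 in 23 of the 31 genes. Over the other 13 animals the median r with the mean of the 5 genes was 0.312 for the 31 genes and -0.042 over all tested probe sets, and 12 of 31 exceeded 0.5, against 2.61% of all. Over 15 animals 10.2% of all tested probe sets exceeded 0.5. High-oleic animals had the higher mean for 22 of the 31 genes and the lower mean for 9. Over all 3255 tested probe sets the mean was higher in 1522 and lower in 1733. The 31 genes are not independent, since most share the same 2 top animals. The median difference of the 31 genes was 0.14 and 0 passed the test, against a median of -0.03 over all tested probe sets.

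Markers of other cells were compared in the same 2 animals. In bulk tissue, fewer cells of a type and less RNA per cell cannot be told apart. The 4 of 19 lymphocyte markers measured had a mean log2 signal of 5.89 in high-oleic animal 2, against 4.51 to 5.40 in the other high-oleic animals, and of 5.56 in control animal 1, against 4.08 to 5.15 in the other control animals. CD2, a surface protein of T and NK cells, was 6.81 and 5.91 in the 2 animals and at most 4.07 in the others. CD8A, a co-receptor of killer T cells, was 5.12 in high-oleic animal 2, the highest of all 15, and 4.82 in control animal 1, against at most 4.77 and 4.86 in the others of each group. CD3E and CD247, parts of the T cell receptor complex, were 2.46 and 9.18 in high-oleic animal 2 and 2.54 and 8.97 in control animal 1, none of them above the others of its group. The 8 of 15 macrophage markers averaged 9.32 in high-oleic animal 2, against 6.92 to 9.41 in its group, and 8.23 in control animal 1, against 7.98 to 8.32. FCGR1A, an interferon-inducible Fc receptor, was 6.97 in high-oleic animal 2, against 2.88 to 4.58 in its group, and 3.89 in control animal 1, against 2.99 to 3.58. MRC1 went the other way in control animal 1, at 6.83 against 6.85 to 8.20, and was inside the group in high-oleic animal 2, at 6.71. C1QC and AIF1 were above the group in high-oleic animal 2 only. CD163, C1QA, TYROBP and VSIG4 were inside the range of the others of each group in both animals. The 3 of 7 endothelial markers averaged 7.48 in high-oleic animal 2, against 6.70 to 7.30, and 7.38 in control animal 1, against 6.498 to 7.40. They disagreed with each other. KDR and ESAM were above the others of each group in both animals. CLDN5 was inside them, at 9.87 against 9.32 to 10.93 and 9.74 against 9.66 to 10.87. KDR was at most 3.76 in any animal. The low values of CD2, CD3E, FCGR1A and KDR are not known to be above background. The 2 of 8 neutrophil markers, at 5.65 and 6.06, lay inside the range of the others in each group. The 7 of 10 skeletal muscle markers averaged 5.004 in high-oleic animal 2, against 3.27 to 8.19 in its group, and 2.87 in control animal 1, the lowest of all 15, against 3.09 to 8.70. Of 5 markers of plasmacytoid dendritic cells, major producers of interferon, only IRF7 was named by a probe set, and it is also a pathway gene. Over the other 13 animals r with the mean of the 5 genes was 0.556 for the lymphocyte markers, 0.306 for the endothelial markers and 0.041 for IRF7. It was -0.089 for the macrophage markers, -0.197 for LEP, -0.229 for the neutrophil markers and -0.578 for the skeletal muscle markers. These values are a description, since all values of an animal share 1 array. The part of these cells in the result was not tested.

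Array measures were compared in these 2 animals, and their part in the result was not tested. The spiked transcripts had a mean signal of 5.67 in high-oleic animal 2, inside its group, and 5.19 in control animal 1, the lowest of all 15. The actin 3′ minus 5′ signal was 1.14 and 0.55 in the 2 animals, inside the range of the others in each group. The RSAD2 3′ minus middle signal was 1.79 in high-oleic animal 2, below the 2.04 to 2.96 of its group. It was 1.86 in control animal 1, inside the 1.19 to 2.90 of its group. Over the other 13 animals it had r = 0.754 with the mean of the 5 genes, of which RSAD2 is 1, and the middle probe set is low there. Array medians were 6.47 and 6.56.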

How the data were processed

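The authors deposited 1 table of log2 signals per probe set from Affymetrix porcine arrays. GCOS and GCRMA are the tools named, per the submitters' processing notes. Versions were not given in the sources used here. A log2 scale was inferred since the deposited values lay between 1.49 and 14.36. All 3272 probe sets had a 3rd largest deviation from the row median of at least 1.5-fold, which leaves less variable genes out of these comparisons. Names came from GEO's platform annotation: 1455 of 3255 tested probe sets had 1 symbol, 27 several and 1773 none. The 17 control probe sets were left out of tests, and those of RSAD2 were read from a fit that kept them. Signals of different probe sets were not compared as levels. Which signals lay above background is not known here.

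Models of diet and of live weight at fixed diet used limma 3.58.1 under R 4.3.3, two-sided, with Benjamini-Hochberg adjustment over 3255 probe sets and a threshold of 0.05. The fit was tested on simulated data. Correlations used Pearson's r and Spearman's rho with 100000 permutations, two-sided, and all orders for 8 or fewer animals. The probe set with the highest mean stood for each gene. The genes named were the members, the 6 genes most like their mean over 15 and over 13 animals, and the measured signalling, sensor and conjugation genes of the list. Outside that rule, OAS1, EIF2AK2, CD2, CD3E, CD8A, CD247 and FCGR1A were picked once their values were known. So were the other measured macrophage markers and the measured endothelial markers. The members, lists, tests and the 2 animals set aside were chosen with earlier results of these data known, so their p-values are no independent support. Alternatives changed the normalization, covariates, weights, filter, probe sets and animals used. The number of arrays limits the precision. Figures were drawn with matplotlib 3.10.9.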

Additional observations from a re-analysis of the deposited data

Results flagged for a closer look

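Within each diet group the highest or lowest animal was set against the others by its gap to the nearest animal, relative to the range (Dixon's criterion). Of 18 checks 13 gave an animal far from the others. Chance gives about 1 in 20, or about 0.90 if the checks were independent. Probe sets of the same animals are not independent. The share over all tested probe sets is not given here. High-oleic animal 2 and control animal 1 were already known as the highest, so the count of 13 is a description. It cannot be weighed against the chance rate. All 13 were high-oleic animal 2 or control animal 1, each the highest of its group, with gaps of 0.613 to 0.758 of the range. High-oleic animal 2 stood apart for MX1 (12.69), ISG15 (12.93), RSAD2 (12.72) and its 3′ and middle control probe sets (11.86 and 10.07), and for the brightest, intermediate and dimmest IFI44L probe sets (11.64, 10.89 and 9.64). Control animal 1 stood apart for MX1 (12.71), the middle RSAD2 control probe set (9.97) and the 3 IFI44L probe sets (12.33, 11.73 and 10.53). MX2 was past the criterion in neither diet. For ISG15 and the ordinary and 3′ RSAD2 probe sets control animal 1 had the top value among controls without passing the criterion.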

How the results depend on the processing

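No probe set passed for diet under any alternative, and 59 to 197 had an unadjusted p under 0.05. With live weight as a covariate the diet difference was -0.38 for MX1, -0.74 for MX2, -0.69 for ISG15, -0.33 for RSAD2, -0.35 for its 3′ and -0.99 for its middle probe set and -0.45 for the dimmest IFI44L probe set, opposite in sign to the fit with diet alone. Without the 2 top animals and with live weight it was -0.30 for MX2 and -0.12 for the middle RSAD2 probe set. The brightest IFI44L probe set turned to 0.014 with array weights, 0.03 with the replicate block, 0.073 without the 2 top animals and 0.047 with live weight besides. Leaving out 1 animal gave -0.091 to 1.02 for MX1, -0.092 to 0.57 for MX2, -0.24 to 0.99 for ISG15, 0.11 to 1.44 for RSAD2 and -0.60 to 0.96 for its middle probe set. For the brightest, intermediate and dimmest IFI44L probe sets it gave -0.36 to 0.36, -0.66 to 0.20 and -0.23 to 0.62. The lowest value came without high-oleic animal 2, except for MX2 (control animal 5), and the highest without control animal 1. For live weight 0 to 5 probe sets passed with 1 animal left out, with 5 when control animal 2 and 2 when high-oleic animal 7 was dropped, and 1 with no diet term, none of them one of the 9. With the replicate block the slope was 0.11 for MX1, 0.24 for the middle RSAD2 probe set and 0.030, 0.033 and 0.11 for the brightest, intermediate and dimmest IFI44L probe sets, and without the 2 top animals it was 0.0069 for the intermediate one. Animals of the same number in the 2 diets are different animals, and their deviations correlated between -0.161 and 0.296, with 4 of 7 over 0.1, so the block is no pairing. Of the 10 pairs, 5 passed over 13 animals, and 1 to 7 with 1 further animal left out. The count was 0 within each diet, 1 without control animal 3 and high-oleic animal 3 (added after seeing the data), and 8 and 2 with the other probe sets named above. ISG15 with IFI44L was -0.061 within high-oleic animals, and 0.504 once high-oleic animal 8 was left out. The median r was 0.913 with all 15 animals, and 0.558 to 0.711 with 1 further animal left out. Quantile normalization and median centring turned no sign of these results. Where a value changed with the covariate, block or weights, the cause was not tested. The number of arrays limits what can be seen, and RSAD2's middle probe set is dim in 13 animals.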

Other observations

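B2M, the light chain of MHC class I, had its lowest signal of all 15 animals in the 2 animals with the highest MX1, at 12.44 in high-oleic animal 2 and 12.31 in control animal 1, against 12.93 to 13.93 in the other 13. Its second probe set did not share this, at 8.55 and 7.70 against 7.17 to 8.62. TAP1, a subunit of the transporter that carries peptides into the endoplasmic reticulum for MHC class I, was 11.04 and 11.10 in these animals, against 8.92 to 10.18.

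Some interferon-induced genes were raised in 1 of the 2 animals more than in the other. GBP1, a guanylate-binding protein, was 11.67 in high-oleic animal 2, within the 10.68 to 12.25 of the other 13, and 12.55 in control animal 1, the highest of all. PLAC8 was 12.52 in high-oleic animal 2 and 11.45 in control animal 1, against 5.52 to 8.29. These genes were chosen after their values were seen, and each value rests on 1 array per animal.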
